A study of Mus musculus with 12 samples.

Results

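The genes described here build the hair shaft and the inner root sheath of the hair follicle. They are keratins of both structures, trichohyalin and the proteins that modify it, and a few other follicle proteins. The list held 32 genes with a known place in the follicle. Of these, 31 were found by symbol among the 36400 genes of the table, and 1 listed type II hair keratin was not analysed here. All 31 reached the minimum mean level of 0.1 FPKM over the 12 libraries and were among the 21890 genes tested.

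A growing follicle makes its shaft and its inner root sheath from dividing matrix cells at the base of the bulb. Keratins assemble as pairs of 1 type I and 1 type II chain, and the sheath and the shaft each have their own set of both types. The inner root sheath surrounds and shapes the young shaft. Its cells harden with trichohyalin, a protein whose arginines are converted to citrulline by peptidylarginine deiminases before it is cross-linked to the keratin filaments. The shaft hardens as its keratins are joined by disulphide bonds to keratin-associated proteins. A resting follicle does not make new shaft or inner root sheath.

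The libraries hold RNA of dorsal skin from female BALB/c mice purchased at an age of 6 weeks, an albino strain, with 3 mice in each of 4 groups and 1 library per mouse. Control mice received the vehicle alone, 3 parts acetone to 1 part olive oil. DNCB mice were sensitized with 1% 1-chloro-2,4-dinitrobenzene (DNCB), a contact sensitizer used to model atopic dermatitis, from day 0 to day 9, and challenged with 0.5% DNCB from day 12 to day 27. The scMSC mice received DNCB and 4 subcutaneous injections of 2000000 human umbilical cord mesenchymal stem cells (MSCs) in 100 µL beside the dermatitis area, from day 13 to day 25. The scivMSC mice received DNCB and the same cell dose split between routes, 50 µL subcutaneously and another 50 µL by tail vein. The methods describe clipping and hair removal cream on the back 2 days before sensitization, a second shaving on day 24 and collection on day 30. None of the 4 groups received injections without cells, so effects of the cells and of the injection cannot be told apart.

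Levels are given in FPKM, fragments scaled by transcript length and by library size, which can be compared between genes. Differences are log2 fold changes of the estimated counts, the first-named group minus the second, ± the standard error of the fit. Adjusted p-values come from edgeR's quasi-likelihood test with Benjamini-Hochberg adjustment over the 21890 genes, unless another tool is named. A gene was called where its adjusted p was under 0.05 and its log2 fold change was beyond 1 in either direction. The estimated counts summed to 63877153 in the shallowest library, control replicate 3, and to 75134001 in the deepest, DNCB replicate 2. The unit of the estimated counts is not stated. Of estimated counts from 1 to 18, between 38.9% and 41.2% per library were multiples of 4, so 4 were assumed to stand for 1 fragment, and 12, or 3 fragments, in a library were taken as the floor. Krt10, a keratin of the upper epidermis, was the most abundant keratin outside the list by mean level over the 12 libraries. Its level was 3736 ± 1652 FPKM (mean ± SD, n = 3) in control, 4976 ± 1362 in DNCB and 2779 ± 1047 in scMSC. In DNCB Krt14, another keratin outside the list, was higher, at 6347 ± 828 FPKM.

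The summed level of the 31 follicle genes differed between groups by orders of magnitude. Their summed FPKM was 41.4, 417 and 24.1 FPKM in control, 548, 357 and 1178 in DNCB, 9739, 28851 and 13506 in scMSC and 8686, 3416 and 5016 in scivMSC. As a share of all FPKM in the library it was 0.0102, 0.0983 and 0.00628 % in control, 0.152, 0.0992 and 0.318 in DNCB, 2.78, 7.5 and 3.72 in scMSC and 2.48, 0.952 and 1.2 in scivMSC. Every MSC-treated library lay above every DNCB library. DNCB libraries lay above control replicates 1 and 3. By summed FPKM control replicate 2 fell between DNCB replicates 2 and 1, and by share it lay just below DNCB replicate 2. Control replicate 2 and scMSC replicate 2 each stood apart from the rest of their group. With 3 libraries per group this was not tested, and the counts and medians of each comparison are given below with the libraries that moved them most. In whole skin, fewer follicle cells and less RNA per follicle cell cannot be told apart.

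**Figure D1:**
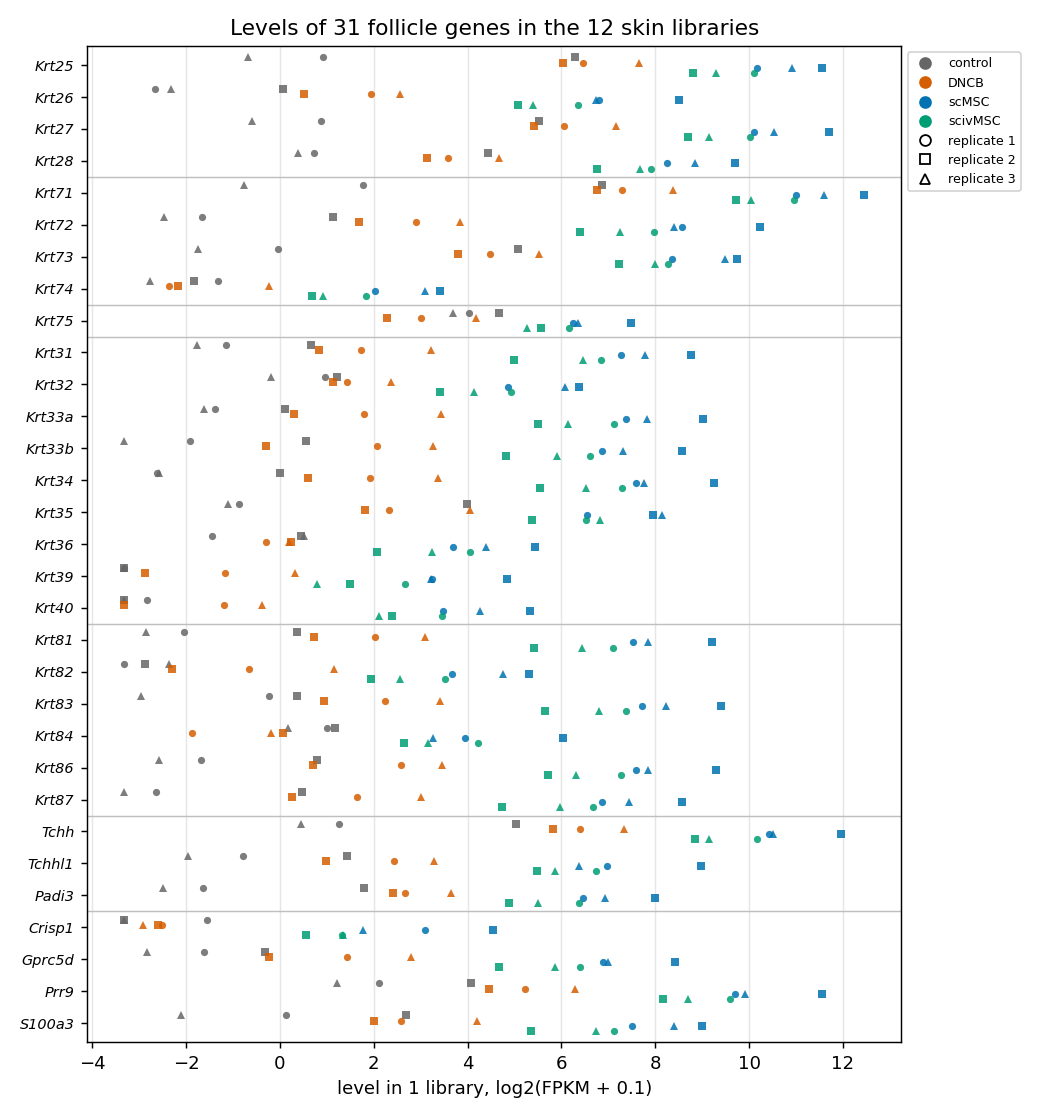
Level of each of the 31 follicle genes (rows, grouped by role with grey lines between classes) in the 12 libraries, as log2(FPKM + 0.1) on the horizontal axis. Colour marks the group and symbol the replicate, and for all 31 genes the 3 scMSC and the 3 scivMSC libraries lie to the right of the 3 DNCB libraries.

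Krt71, a type II keratin found in all layers of the inner root sheath, was the most abundant of these genes in 10 of 12 libraries. Its levels were 3.31, 116 and 0.486 FPKM in control, 157, 108 and 332 in DNCB, 2054, 5633 and 3096 in scMSC and 1991, 842 and 1062 in scivMSC. By rank among all 36400 genes it was 2 in scMSC replicate 2 and 16049 in control replicate 3. Control replicate 2 exceeded DNCB replicate 2, so control and DNCB overlapped. Both MSC groups lay above every DNCB library without overlap. The log2 fold change of Krt71 in scMSC minus DNCB was 4.23 (adjusted p = 0.0963), not called, with adjusted p-values of 0.00167 to 0.247 over the alternative settings. In scivMSC minus DNCB it was 2.71 ± 1.40 (adjusted p = 0.287). Against control the scMSC group was 6.31 ± 1.66 (adjusted p = 0.0238), a call lost without control replicate 1 or scMSC replicate 2.

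The type I partners in the sheath had nearly the same profile. Krt25 was at 1.78, 77.7 and 0.524 FPKM in control, 87.4, 65.3 and 200 in DNCB, 1156, 3017 and 1935 in scMSC and 1101, 450 and 626 in scivMSC. Krt27 was at 1.74, 46 and 0.565 FPKM in control, 66.9, 42.6 and 143 in DNCB, 1095, 3363 and 1474 in scMSC and 1037, 413 and 569 in scivMSC. For both, control replicates 1 and 3 held under 2 FPKM while control replicate 2 lay within the DNCB range. Neither passed the test in scMSC minus DNCB, at 4.17 ± 1.46 (adjusted p = 0.0916) for Krt25 and 4.61 ± 1.38 (adjusted p = 0.0525) for Krt27. Without control replicate 2 or 3 both were called there, and Krt27 was also called without control replicate 1 (range over the alternatives 0.00055 to 0.165). Krt28, another type I sheath keratin, was at 1.55, 21.5 and 1.21 FPKM in control, 11.8, 8.65 and 25.5 in DNCB, 304, 834 and 459 in scMSC and 239, 108 and 203 in scivMSC. Its control replicate 2 exceeded DNCB replicates 1 and 2. Krt28 was called in scMSC minus DNCB at 5.17 ± 1.12 (adjusted p = 0.013), and the call was lost without DNCB replicate 1 or 2, with a highest adjusted p of 0.0593.

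Krt72 and Krt73 are further type II sheath keratins. Krt72 was at 0.216, 2.1 and 0.081 FPKM in control, 7.37, 3.11 and 14.3 in DNCB, 378, 1211 and 340 in scMSC and 252, 84.7 and 152 in scivMSC. All its control libraries lay below all its DNCB libraries. It was higher in scMSC than in DNCB by 6.35 ± 1.21 (adjusted p = 0.00733) and in scivMSC than in DNCB by 4.32 ± 1.10 (adjusted p = 0.0369). The scivMSC call was lost without any single DNCB library or without scivMSC replicate 1 or 3 (up to 0.129). Krt73 was at 0.866, 33.7 and 0.197 FPKM in control, 22.1, 13.8 and 46 in DNCB, 328, 863 and 715 in scMSC and 310, 149 and 257 in scivMSC. Here control replicate 2 lay above DNCB replicates 1 and 2, and scMSC minus DNCB was 4.59 ± 1.47 (adjusted p = 0.0675), not called, but called without any single control library.

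The remaining sheath keratins were Krt26 and Krt74. Krt26 was scarcer than the other type I sheath keratins in control, at 0.0571, 0.954 and 0.0993 FPKM, and reached 111, 365 and 106 FPKM in scMSC. By edgeR as described above it was the only sheath keratin of the 8 called in DNCB minus control, at 3.06 ± 0.99 (adjusted p = 0.0445). That call was lost without any of 9 of the 12 libraries, up to an adjusted p of 0.125. DESeq2 also called Krt72 there, and limma with either pseudocount also called Krt25, Krt27, Krt71 and Krt72. Krt74 was the lowest of the class, with 0.0939, 0.123 and 0.747 FPKM in DNCB and 3.99, 10.5 and 8.37 in scMSC. It was called in scMSC minus DNCB at 4.60 ± 0.89 (adjusted p = 0.00798), under every alternative tried.

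Krt75, a type II keratin of the companion layer and the medulla, had a different base level. It was at 16.3, 25.4 and 12.8 FPKM in control, 7.96, 4.8 and 18.1 in DNCB, 76.4, 178 and 81.3 in scMSC and 71.7, 47.3 and 38.7 in scivMSC. In control replicates 1 and 3 it was the most abundant gene of the 31, and the control and DNCB ranges overlapped. DNCB minus control was -1.02 ± 0.51 (adjusted p = 0.171), not called, and became a call in the lower direction without DNCB replicate 3 (adjusted p = 0.0406, the lowest of 0.0406 to 0.408 over the alternatives). The gene rose in scMSC over DNCB by 3.50 ± 0.56 (adjusted p = 0.00346) and in scivMSC over DNCB by 2.36 ± 0.53 (adjusted p = 0.0237). The former was called under every alternative and the latter was lost without DNCB replicate 1 or 2 or scivMSC replicate 1, up to 0.0934. Its log2 fold change in scMSC minus DNCB was the smallest of the 31.

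The hair shaft type I keratins line the cortex and the cuticle of the shaft. Krt34 was at 0.0629, 0.903 and 0.0663 FPKM in control, 3.69, 1.42 and 10.2 in DNCB, 194, 610 and 218 in scMSC and 157, 46.4 and 91.6 in scivMSC. Krt33a was at 0.286, 0.972 and 0.228 FPKM in control, 3.39, 1.14 and 10.7 in DNCB, 167, 518 and 228 in scMSC and 140, 45.3 and 71 in scivMSC. Both were under 1 FPKM in all control libraries, between 1 and 11 FPKM in DNCB and above 45 FPKM in every MSC-treated library, with no overlap at either step. Krt34 was called in DNCB minus control at 3.63 ± 1.06 (adjusted p = 0.0283), in scMSC minus DNCB at 6.13 ± 1.13 (adjusted p = 0.00632) and in scivMSC minus DNCB at 4.29 ± 1.04 (adjusted p = 0.031). For Krt33a these values were 3.13 ± 0.89 (adjusted p = 0.0249), 5.97 ± 0.98 (adjusted p = 0.00391) and 4.08 ± 0.89 (adjusted p = 0.0218). The DNCB minus control calls of both were lost without control replicate 1, control replicate 3 or DNCB replicate 3, reaching 0.105 and 0.112. Their scMSC minus DNCB calls held under every alternative.

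Krt31, a cortex keratin, was at 0.353, 1.48 and 0.193 FPKM in control, 3.23, 1.67 and 9.22 in DNCB, 154, 437 and 220 in scMSC and 115, 31.5 and 88 in scivMSC. Its controls lay below all DNCB libraries, though control replicate 2 came within 0.2 FPKM of DNCB replicate 2. It was called in scMSC minus DNCB at 5.90 ± 0.97 (adjusted p = 0.00399) under every alternative, and in scivMSC minus DNCB at 4.07 ± 0.89 (adjusted p = 0.0217), a call lost if DNCB replicate 1 or 2, or scivMSC replicate 1 or 3, was left out. Krt35, an early keratin of the shaft matrix and cuticle, was at 0.45, 15.7 and 0.366 FPKM in control, 4.92, 3.41 and 16.4 in DNCB, 93.2, 247 and 283 in scMSC and 92, 41.3 and 113 in scivMSC. It was the shaft keratin in which control replicate 2 stood farthest from the other controls in FPKM, close to the level of DNCB replicate 3. Its scMSC minus DNCB difference was 4.70 ± 1.37 (adjusted p = 0.0473). That call was lost without any 1 of the 9 libraries of DNCB, scMSC and scivMSC, with adjusted p-values of 0.00055 to 0.153 over the alternatives.

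Of the other type I shaft keratins, Krt33b had mean levels of 4.78 ± 4.43 FPKM in DNCB and 218 ± 141 in scMSC (mean ± SD, n = 3). The cuticle keratin Krt32 was at 1.86, 2.23 and 0.78 FPKM in control and 28.9, 83.3 and 67.7 in scMSC, and it had the lowest adjusted p of the 31 in scMSC minus DNCB, at 4.25 ± 0.61 (adjusted p = 0.00244). Krt36 overlapped between control and DNCB, at 0.267, 1.27 and 1.33 and 0.714, 1.07 and 1.05 FPKM, and was called in scMSC minus DNCB at 4.81 ± 0.74 (adjusted p = 0.00306). Krt39 had no estimated count in any control library and was at 0.347, 0.0358 and 1.15 FPKM in DNCB. Against the floor of 12 estimated counts per library, it was at least 4.4-fold higher in DNCB, at least 141-fold higher in scMSC and at least 30.3-fold higher in scivMSC than in control. These bounds became 1.68 without DNCB replicate 3, 79.6 without scMSC replicate 2 and 18.9 without scivMSC replicate 1, and DNCB replicate 2 alone was under the floor, with 5 estimated counts. Krt40 was at 0 in control replicates 2 and 3 and DNCB replicate 2, and reached 11, 40.1 and 19.1 FPKM in scMSC.

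The type II shaft keratins Krt83, Krt86, Krt81 and Krt87 pair with the type I cortex keratins. Krt83 was at 0.75, 1.18 and 0.0293 FPKM in control, 4.61, 1.83 and 10.6 in DNCB, 212, 679 and 300 in scMSC and 167, 49.9 and 112 in scivMSC. Krt86 was at 0.212, 1.63 and 0.0684 FPKM in control, 5.91, 1.53 and 10.8 in DNCB, 193, 630 and 230 in scMSC and 155, 52.6 and 79.3 in scivMSC. Their controls lay at or below 1.63 FPKM, and every scMSC library exceeded 190 FPKM. Krt83 was called in scMSC minus DNCB at 6.19 ± 1.10 (adjusted p = 0.00532) and in scivMSC minus DNCB at 4.29 ± 1.01 (adjusted p = 0.0277). For Krt86 the values were 5.91 ± 1.16 (adjusted p = 0.00859) and 3.98 ± 1.06 (adjusted p = 0.0443). The scivMSC call of Krt83 was lost without any single DNCB library or without scivMSC replicate 1 or 3, and that of Krt86 without any of 8 libraries.

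Krt81 was at 0.142, 1.18 and 0.0382 FPKM in control, 3.97, 1.56 and 8.49 in DNCB, 183, 594 and 231 in scMSC and 138, 42.8 and 86.8 in scivMSC. Krt87 was at 0.0597, 1.28 and 0 FPKM in control, 3.03, 1.09 and 7.94 in DNCB, 116, 381 and 175 in scMSC and 102, 26.4 and 62.3 in scivMSC. These 4 keratins share long identical stretches, so the assignment of reads among them is uncertain. Krt81 was called in DNCB minus control at 3.13 ± 1.04 (adjusted p = 0.0486), a call lost without any of 9 libraries and up to 0.155. In scMSC minus DNCB it was 6.23 ± 1.16 (adjusted p = 0.00665), and Krt87 was 5.86 ± 1.39 (adjusted p = 0.0192), the latter lost without DNCB replicate 1, DNCB replicate 2 or scMSC replicate 2. Krt82, a cuticle keratin, was near 0 in control, at 0, 0.036 and 0.0935 FPKM, and was called in DNCB minus control at 4.20 ± 1.17 (adjusted p = 0.0227), lost without control replicate 1, control replicate 2 or DNCB replicate 3 (range over the alternatives 0.00192 to 0.27). Krt84, a keratin also found in tongue papillae, was at 1.9, 2.16 and 1.03 FPKM in control and 0.172, 0.952 and 0.78 in DNCB, and it was the only gene of the 31 with every DNCB library below every control library. That difference, -1.61 ± 0.80 (adjusted p = 0.173), was not called. In scMSC it was at 15.2, 65.9 and 9.44 FPKM, and scMSC minus DNCB was 5.63 ± 0.94 (adjusted p = 0.00422).

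Trichohyalin (Tchh), which hardens the inner root sheath and the medulla, was the second most abundant of the 31 genes by mean level. Its levels were 2.3, 32.6 and 1.26 FPKM in control, 83.8, 56.1 and 162 in DNCB, 1367, 3979 and 1455 in scMSC and 1160, 461 and 571 in scivMSC. All controls lay below all DNCB libraries, with control replicate 2 standing nearest. DNCB minus control was 2.83 ± 1.09 (adjusted p = 0.0819), not called, but called by limma with either pseudocount and without control replicate 2 (adjusted p = 0.00347, within 0.00347 to 0.202 over the alternatives). In scMSC minus DNCB it was 4.55 ± 1.18 (adjusted p = 0.0289), a call lost without any single DNCB library or without scMSC replicate 2. DESeq2 gave no p for Tchh in any comparison, so its counts below are out of 30 genes. The trichohyalin-like gene Tchhl1 was at 0.48, 2.61 and 0.156 FPKM in control, 5.3, 1.88 and 9.71 in DNCB, 125, 501 and 83.4 in scMSC and 106, 44.4 and 57.8 in scivMSC. It was called in scMSC minus DNCB at 5.47 ± 1.14 (adjusted p = 0.0112), lost without DNCB replicate 1. Padi3, a peptidylarginine deiminase that acts on trichohyalin, was at 0.22, 3.38 and 0.0769 FPKM in control, 6.22, 5.23 and 12.4 in DNCB and 87.8, 256 and 122 in scMSC, with 4.34 ± 1.16 (adjusted p = 0.0327) in scMSC minus DNCB. That call was lost without any single DNCB library or without scMSC replicate 2 or 3. By edgeR none of these 3 genes was called in scivMSC minus DNCB, where their adjusted p-values were 0.143, 0.0596 and 0.157 (ranges over the alternatives 0.0258 to 0.326, 0.00789 to 0.174 and 0.0226 to 0.343) and all 3 had an unadjusted p under 0.05. DESeq2 and limma on log2(FPKM + 0.1) called Tchhl1 there, limma on log2(FPKM + 1) called Tchhl1 and Padi3, and edgeR with only the 6 libraries compared called all 3.

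Prr9, a small proline-rich protein encoded in the epidermal differentiation complex, was at 4.21, 16.7 and 2.24 FPKM in control, 37.5, 22 and 78.4 in DNCB, 828, 2991 and 965 in scMSC and 769, 288 and 414 in scivMSC. S100a3, a calcium-binding protein of the shaft cuticle, was at 0.997, 6.37 and 0.133 FPKM in control, 5.87, 3.92 and 18.4 in DNCB, 182, 508 and 340 in scMSC and 139, 41 and 106 in scivMSC. Prr9 did not overlap between control and DNCB, while control replicate 2 of S100a3 exceeded DNCB replicates 1 and 2. Prr9 was called in scMSC minus DNCB at 5.18 ± 0.93 (adjusted p = 0.00575) and in scivMSC minus DNCB at 3.43 ± 0.86 (adjusted p = 0.0353), the latter lost without any single DNCB library or without scivMSC replicate 1 or 3 (up to 0.125). S100a3 was 5.24 ± 1.22 (adjusted p = 0.0181) and 3.36 ± 1.12 (adjusted p = 0.0957) in the same order, and its scMSC call was lost without DNCB replicate 1 or 2. The Prr9 and S100a3 loci each overlap another gene on the same strand, 4930511M18Rik for Prr9 and S100a2 and Gm42674 for S100a3. Of these, only Gm42674 shared stretches of 50 bases with the transcript compared, 14.6% of those of S100a3.

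Gprc5d, an orphan receptor of hard keratinizing structures, was called in DNCB minus control at 3.15 ± 0.98 (adjusted p = 0.0366) and in scMSC minus DNCB at 5.92 ± 1.03 (adjusted p = 0.00489). The former call was lost without control replicate 1 or 3 or DNCB replicate 1 or 3, up to 0.147. Its control levels were 0.226, 0.697 and 0.0404 FPKM and its DNCB levels 2.59, 0.757 and 6.81. Crisp1, a secreted cysteine-rich protein better known from the epididymis, was the least abundant outside the keratins. It was at 0.239, 0 and 0 FPKM in control and 0.0742, 0.0647 and 0.033 in DNCB, where each DNCB library held no more than 12 estimated counts. In scMSC it was at 8.44, 23.1 and 3.33 FPKM, and its log2 fold change of 7.65 ± 1.34 (adjusted p = 0.00501) in scMSC minus DNCB was the largest of the 31 and rests on DNCB values at the floor. Its mean level was 0.0795 FPKM in control and 0.0573 in DNCB, against 11.6 in scMSC and 2.07 in scivMSC. It thus passed the filter of 0.1 FPKM only through the MSC groups, and its calls in those groups are not independent of that filter.

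**Figure D2:**
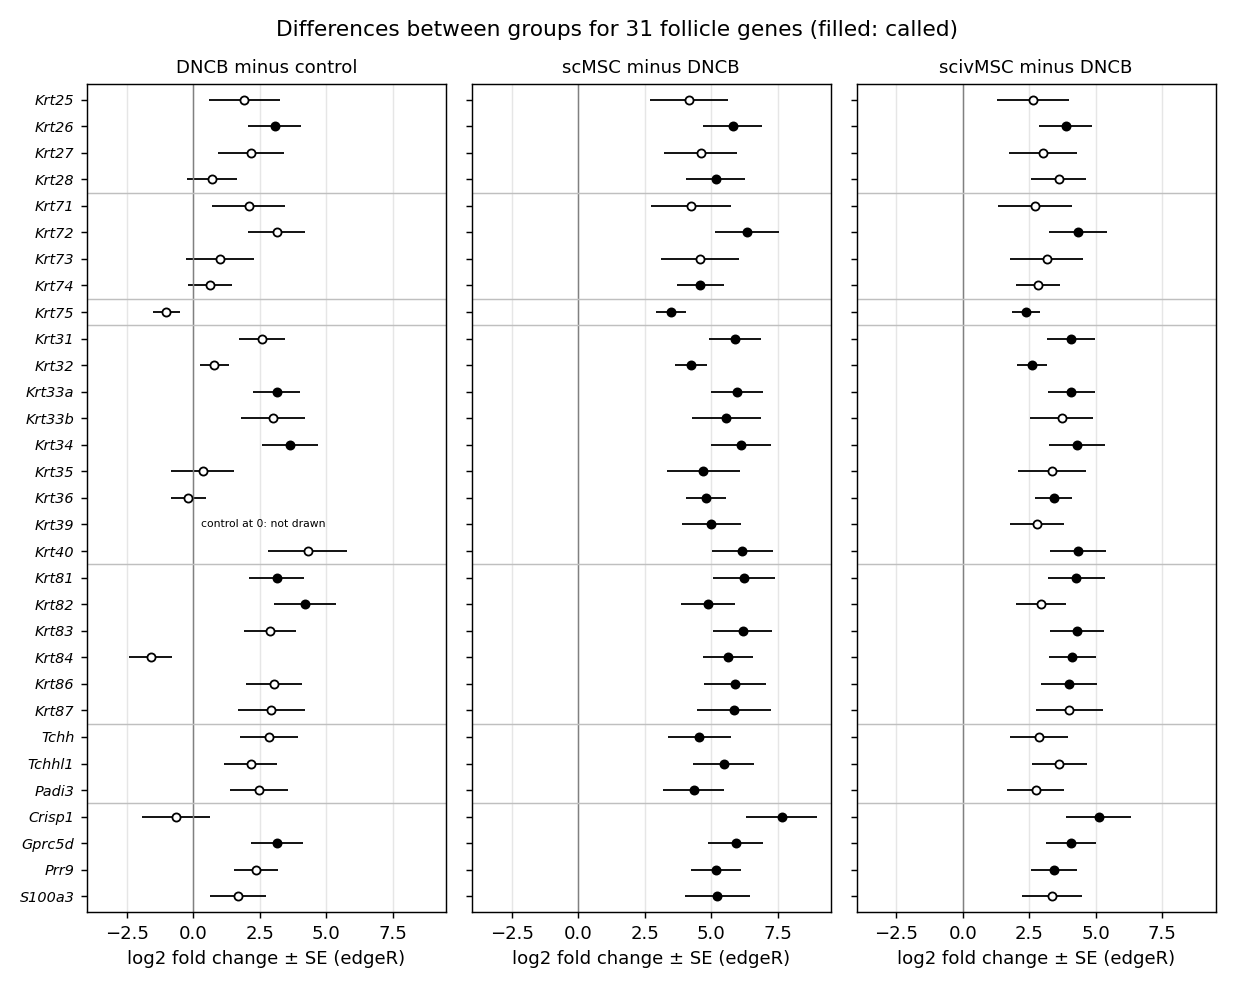
Log2 fold change of each of the 31 follicle genes in 3 comparisons, DNCB minus control, scMSC minus DNCB and scivMSC minus DNCB, with bars for the standard error of the edgeR fit (3 libraries per group). Filled circles were called and open circles were not, with 7, 27 and 16 filled in that order counting Krt39, which has all controls at 0 and is not drawn in the first panel.

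The comparison of DNCB with control asks what sensitization and repeated challenge with DNCB did to the skin. Of these genes 7 were called, Krt26, Krt33a, Krt34, Krt39, Krt81, Krt82 and Gprc5d, and all were higher in DNCB. They comprise 1 of 8 sheath keratins, 5 of 15 shaft keratins, none of the 3 trichohyalin genes (2 at an unadjusted p under 0.05) and 1 of 4 other proteins, by edgeR. Of Tchh, Tchhl1 and Padi3, limma on log2(FPKM + 0.1) called all 3, limma on log2(FPKM + 1) called Tchh and Padi3, and DESeq2 called neither Tchhl1 nor Padi3. Over all genes of the list DESeq2 called 13 of 30 and limma 19 and 12 of 31, with the smaller pseudocount first. Across all genes tested, 6.59% were called higher and 7.57% lower. The median log2 fold change of the 31 genes was 2.47, or 2.35 with Krt39 at its bound, against 0.022 over all genes tested. Individual values ran from -1.61 for Krt84 to 4.30 for Krt40, leaving out Krt39, and Krt75, Krt84, Krt36 and Crisp1 had negative values. All 3 control libraries of Krt40 were at or under the floor, and its value ran from 0.37 to 8.09 over the alternatives. In 13 of the 31 every DNCB library exceeded every control library, as in 31.7% of all genes tested.

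These counts depended on single libraries. Without control replicate 2, 22 genes were called and the median was 4.10. Without control replicate 1 or 3 the count was 1 or 2, and the median was 1.87 without control replicate 3 and 1.73 without DNCB replicate 3. Without DNCB replicate 1, 2 or 3 it was 4, 11 or 2, and the last of these included Krt75 in the lower direction. In control replicate 2 the sheath keratins summed to 298 FPKM and the shaft keratins to 31.4 FPKM, against 9.82 and 6.55 in control replicate 1 and 3.21 and 4.22 in control replicate 3.

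Treatment with MSCs under the skin was compared with DNCB alone. All 31 genes were higher in every scMSC library than in every DNCB library, as were 16% of all genes tested. Of the 31, 27 were called higher, against 4.66% of all genes called higher and 3.84% called lower. The median log2 fold change was 5.24, a 37.9-fold difference, against 0.016 over all genes tested. It was 4.48, or 22.4-fold, without scMSC replicate 2 and 6.17, or 72.2-fold, without DNCB replicate 3. All 9 type I and 6 type II shaft keratins were called, with medians of 5.57 and 5.89. Among sheath keratins 4 of 8 were called, with medians of 4.89 for type I and 4.60 for type II. Krt75, the 3 trichohyalin genes and the 4 other follicle proteins were all called, among them Crisp1, which passed the filter only through the MSC groups. The 4 not called by edgeR, Krt25, Krt27, Krt71 and Krt73, were among the 6 most abundant by mean level, had log2 fold changes from 4.17 to 4.61 and unadjusted p-values under 0.05. DESeq2, limma on log2(FPKM + 1) and edgeR with only the 6 libraries compared called all 4, and limma on log2(FPKM + 0.1) called Krt27 and Krt73. DESeq2 called all 30 genes it gave a p for and limma 29 and 31 of 31, with the smaller pseudocount first. Of the 27 calls 17 held under every alternative, and the count was 17 without DNCB replicate 1, 21 without scMSC replicate 2 and 31 without control replicate 2 or 3.

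Treatment divided between skin and tail vein was compared with DNCB in the same way. Again all 31 genes were higher in every scivMSC library than in every DNCB library, a pattern found in 16.4% of all genes tested. Of the 31, 16 were called higher, against 3.13% of all genes called higher and 2.33% called lower. The median log2 fold change was 3.60, or 12.1-fold, against 0.023 over all genes tested, and 4.32 without DNCB replicate 3. The called genes were 1 type I and 1 type II sheath keratin (Krt26 and Krt72), Krt75, 6 of 9 type I and 4 of 6 type II shaft keratins, and Crisp1, Gprc5d and Prr9. Log2 fold changes ran from 2.36 for Krt75 to 5.11 for Crisp1, and 29 of 31 had an unadjusted p under 0.05. The Crisp1 value and call rest on DNCB libraries at or under the floor, and the gene passed the filter only through the MSC groups. DESeq2 called 22 of 30 and limma 23 and 24 of 31, with the smaller pseudocount first. The count was 0 without DNCB replicate 1 or scivMSC replicate 1, 1 without DNCB replicate 2, 4 without scivMSC replicate 3, 8 without DNCB replicate 3 and 27 without control replicate 2. At 0 calls, the unadjusted p was under 0.05 for 23 genes without DNCB replicate 1 and 24 without scivMSC replicate 1. No call of this comparison held under every alternative.

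Against control, both MSC groups showed higher levels of these genes. All 31 were called higher in scMSC than in control, where 5.12% of all genes were called higher and 4.2% lower, and in all 31 every scMSC library exceeded every control library, as in 25.9% of genes tested. The median log2 fold change was 7.54, or 7.39 with Krt39 at its bound, 9.87 without control replicate 2 and 6.57 without scMSC replicate 2. In scivMSC minus control 25 were called higher, against 3.5% of all genes called higher and 3.35% lower, with all 31 non-overlapping, as in 24.3% of genes tested. The median was 5.78, or 5.70 with Krt39 at its bound, and 8.14 without control replicate 2. The 6 not called by edgeR were Krt25, Krt35, Krt71, Krt73, Krt75 and Krt84, and DESeq2 and limma with either pseudocount called all 6. DESeq2 called all 30 genes it gave a p for and limma all 31 with either pseudocount, and in scMSC minus control the counts were the same. Without control replicate 1 the scivMSC count was 16. Crisp1, counted as called in both comparisons, passed the filter only through the MSC groups. These comparisons share their control and treated libraries with those above.

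The delivery routes were compared directly in scivMSC minus scMSC. None of the 31 genes was called by edgeR, against 0.00457% of all genes, or 1 gene, called in either direction. At an unadjusted p under 0.05, 7 of the 31 passed by edgeR, 9 of 30 by DESeq2, 9 by limma on log2(FPKM + 0.1) and 21 by limma on log2(FPKM + 1). By edgeR it was 29 with only the 6 libraries compared, 18 with counts divided by 4, 15 with no filter, 6 with a mean FPKM of at least 1, 5 with library size alone and 1 with a replicate block. None of the 31 was called by any of these fits. All 31 log2 fold changes were negative, from -1.14 for Krt75 to -2.53 for Crisp1, with a median of -1.84 against 0.008 over all genes. Without scMSC replicate 2 the median was -1.10 and 0 of the 31 had an unadjusted p under 0.05 by edgeR. That number was 1 without scivMSC replicate 2 or 3, 4 without DNCB replicate 1, 12 without scMSC replicate 1, 13 without control replicate 3 and 21 without control replicate 2. In 26 of 31 every scMSC library exceeded every scivMSC library, as in 5.67% of all genes tested. For Krt71 the difference was -1.51 ± 1.34 (adjusted p = 0.901), and for Krt32, with the smallest standard error but that of Krt75, -1.66 ± 0.55 (adjusted p = 0.596). The summed level was 8686 FPKM in scivMSC replicate 1 and 9739 FPKM in scMSC replicate 1, the nearest pair.

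Among the sheath keratins the type I and type II chains kept a near constant ratio. The summed FPKM of Krt25, Krt26, Krt27 and Krt28 was 5.13, 146 and 2.4 FPKM in control, 170, 118 and 374 in DNCB, 2666, 7578 and 3972 in scMSC and 2459, 1005 and 1440 in scivMSC. That of Krt71, Krt72, Krt73 and Krt74 was 4.7, 152 and 0.81 FPKM in control, 187, 125 and 393 in DNCB, 2764, 7717 and 4159 in scMSC and 2556, 1078 and 1472 in scivMSC. Type I over type II was 1.09, 0.961 and 2.96 in control, 0.908, 0.94 and 0.954 in DNCB, 0.965, 0.982 and 0.955 in scMSC and 0.962, 0.932 and 0.978 in scivMSC. Apart from control replicates 1 and 3, in which both sums were under 6 FPKM, the ratio stayed between 0.908 and 0.982 while the sums differed more than 60-fold. For the shaft keratins the ratio ran from 0.998 in scMSC replicate 2 to 3.2 in control replicate 2, with 1 type II member not analysed here.

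The balance of shaft to sheath keratins differed between groups. Summed shaft keratins over summed sheath keratins was 0.667, 0.105 and 1.32 in control, 0.117, 0.0765 and 0.136 in DNCB, 0.279, 0.312 and 0.27 in scMSC and 0.251, 0.191 and 0.279 in scivMSC. All 3 DNCB libraries and control replicate 2 lay below all 6 MSC-treated libraries. Control replicates 1 and 3 had the highest ratios, on sums under 10 FPKM. The ratio was not tested, since it was formed after the values were seen. For the single pair Krt83 over Krt71 it was 0.227, 0.0102 and 0.0602 in control, and ran from 0.0169 to 0.032 in DNCB and from 0.0593 to 0.121 in the MSC-treated libraries.

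**Figure D3:**
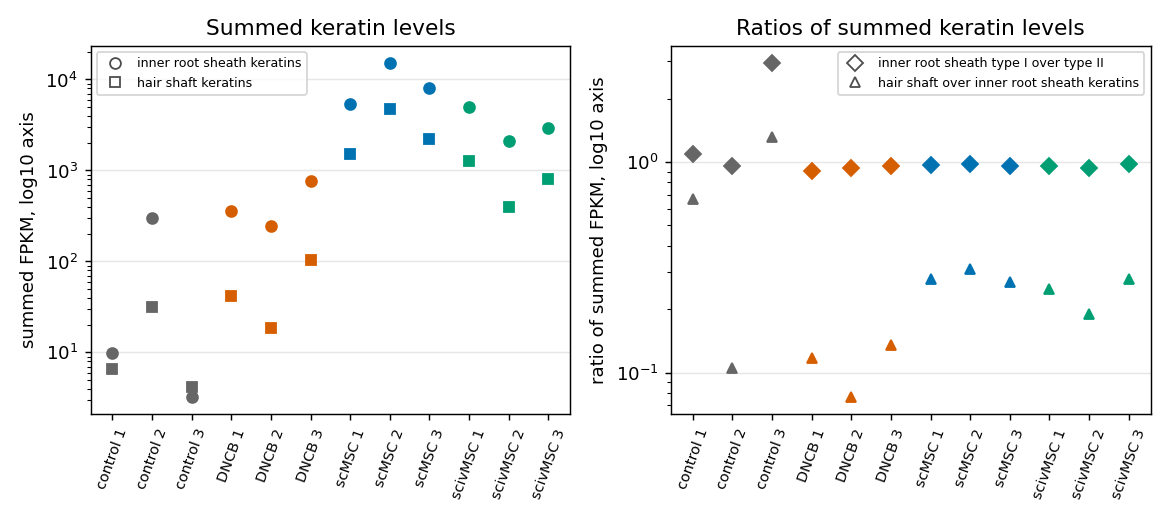
Left, summed FPKM of the 8 inner root sheath keratins (circles) and the 15 hair shaft keratins (squares) in each library on a log10 axis. Right, the ratio of type I to type II sheath keratins (diamonds) and of shaft to sheath keratins (triangles) on a log10 axis, with the latter between 0.0765 and 0.136 in DNCB and between 0.191 and 0.312 in the MSC-treated libraries.

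Most of the genes lie in 2 keratin clusters (coordinates of GRCm38). On chromosome 11, 13 type I keratin genes span chr11:99315516-100105626, all on the minus strand. On chromosome 15, 11 type II genes span chr15:101431038-101802346, where Krt86 is the only one on the plus strand. Prr9, Tchh, Tchhl1 and S100a3 lie on chromosome 3, and Padi3, Gprc5d and Crisp1 on chromosomes 4, 6 and 17. Inside the chromosome 11 span, all 23 keratin-associated protein genes were called higher in scMSC than in DNCB, with a median log2 fold change of 5.96, beside 5.17 for the 13 keratins of the list. Of 27 tested genes there with names of neither family, 19 were called higher and 0 lower, with a median of 5.99. Of the 4 other keratins there only Krt23 was called higher, at 3.90 ± 0.43 (adjusted p = 0.00145), while Krt10 was -0.83 ± 0.37 (adjusted p = 0.196) and Krt12 and Krt20 were not called.

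In the chromosome 15 span the neighbouring keratins of the epidermis went the other way. Krt5, the type II keratin of basal keratinocytes, was -1.60 ± 0.23 (adjusted p = 0.00239) in scMSC minus DNCB. Krt6a and Krt6b, keratins of stressed and outer root sheath keratinocytes, were -3.33 ± 0.60 (adjusted p = 0.00551) and -5.85 ± 0.92 (adjusted p = 0.00337). These 3 genes lie between Krt75 and Krt71, which were 3.50 and 4.23 in the same comparison. Krt90, a little-studied keratin between Krt82 and Krt75, was called higher at 3.76 ± 0.69 (adjusted p = 0.00632).

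**Figure D4:**
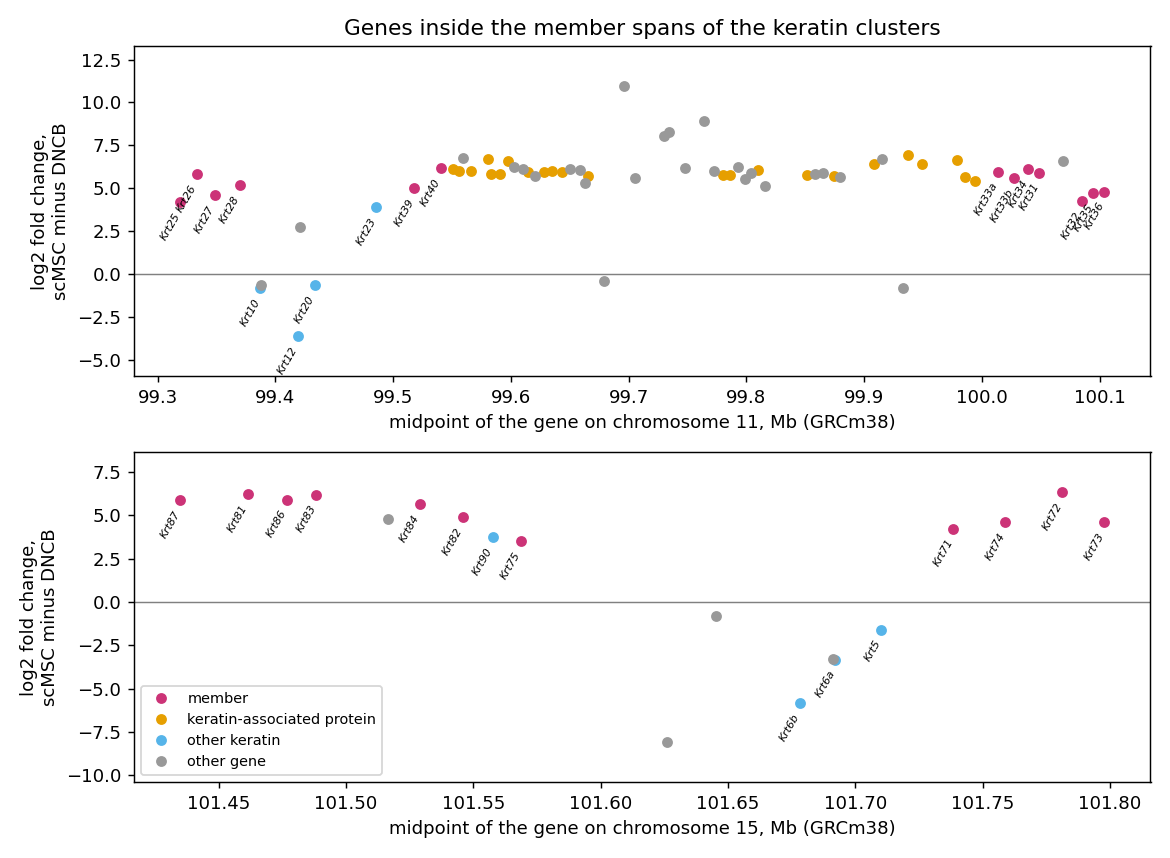
Log2 fold change, scMSC minus DNCB, of every tested gene inside the spans of the listed keratins on chromosome 11 (top) and chromosome 15 (bottom), by the midpoint of the gene in Mb of GRCm38. The listed genes (pink) lie between 3.50 and 6.35, while Krt5, Krt6a and Krt6b in the middle of the chromosome 15 span lie below 0.

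Identical sequence limits how far single members can be told apart. The longest coding transcript of each gene in GENCODE M21 was compared, in stretches of 50 bases, with the transcripts of all other genes. Krt81 shared 43.5% of its stretches with other genes and Krt86 43.3%, mostly with each other. Krt87 shared 36.9%, Krt34 33.1%, Krt31 28.1%, Krt33b 24.2%, Krt83 23.2% and Krt33a 21.9%. For the sheath keratins the shares were 11.1% for Krt27 and 10.9% for Krt25, again with each other, and 1.97% or less for Krt71, Krt72 and Krt73. Tchh, Tchhl1, Prr9 and Gprc5d shared none. Krt74 had no transcript annotated as coding and was not compared.

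The promoters of these genes were examined for 4 short motifs. RefSeq windows from 250 bases before to 50 bases after the start (GRCm38.p6) matched 24 of the 31 genes. Krt83, Krt33a, Krt87, Krt35, Krt81, Krt86 and Krt74 had none. For S100a3, with 4 windows, the one at the gene's start in the table was used. TATAAA, the core of the TATA box, occurred on either strand in 16 of 24 windows, beside 13.6% of all 32851 windows. On the gene's own strand with its first base 35 to 25 bases before the start, a range chosen after the sequences were seen, it occurred in 10 of 24, beside 1.75% of all windows. These were Krt25, Krt26, Krt28, Krt31, Krt32, Krt34, Krt40, Krt73, Crisp1 and Prr9. The RefSeq starts of Krt73, Krt32 and Krt40 lie 14, 43 and 62 bases upstream of their starts in the table, so which genes are counted depends on the start used. CTTTGA, a core of LEF and TCF factor motifs, occurred in 7 of 24 beside 16%, GACGC, a core of FOXN1 motifs, in 2 of 24 beside 27.2%, and TGANTCA, the AP-1 motif, in 2 of 24 beside 7.81%. A match is a description of the letters and was not tested for function.

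The 100 bases before the RefSeq start are shown for 8 genes with levels given in every library that hold TATAAA there, in capitals, to show its place relative to the start at the right end. The sequences are from GRCm38.p6 and are read 5′ to 3′ on the strand of the gene.
Krt25, chr11:99322952-99323051, minus strand: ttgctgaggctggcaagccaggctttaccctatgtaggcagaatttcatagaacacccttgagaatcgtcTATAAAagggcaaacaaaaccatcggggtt
Krt27, chr11:99351119-99351218, minus strand: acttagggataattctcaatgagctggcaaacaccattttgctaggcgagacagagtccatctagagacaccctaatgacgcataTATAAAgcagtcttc
Krt28, chr11:99374904-99375003, minus strand: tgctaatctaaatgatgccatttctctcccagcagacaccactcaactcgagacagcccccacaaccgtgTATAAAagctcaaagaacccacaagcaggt
Krt71, chr15:101743098-101743197, minus strand: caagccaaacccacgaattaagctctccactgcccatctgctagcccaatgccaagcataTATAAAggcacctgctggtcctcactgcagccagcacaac
Krt73, chr15:101802361-101802460, minus strand: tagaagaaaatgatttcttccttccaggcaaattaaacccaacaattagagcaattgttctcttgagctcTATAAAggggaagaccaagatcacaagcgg
Krt31, chr11:100050552-100050651, minus strand: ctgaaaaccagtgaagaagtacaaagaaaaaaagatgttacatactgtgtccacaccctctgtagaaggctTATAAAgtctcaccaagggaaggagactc
Krt34, chr11:100041555-100041654, minus strand: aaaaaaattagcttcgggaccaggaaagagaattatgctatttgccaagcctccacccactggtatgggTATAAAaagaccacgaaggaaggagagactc
Prr9, chr3:92123948-92124047, minus strand: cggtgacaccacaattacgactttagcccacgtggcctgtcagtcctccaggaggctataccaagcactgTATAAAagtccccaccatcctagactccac
In Krt25, Krt28, Krt73 and Prr9 the first base of the motif lay at -30 from the start, in Krt31 at -29 and in Krt34 at -31. In Krt71 it lay at -40 and in Krt27 at -15. The RefSeq start lies 12 bases downstream of the start in the table for Krt71 and 14 bases upstream of it for Krt27. Counted from the table's starts, the motif would thus lie nearer in Krt71 and farther in Krt27. The RefSeq start of Krt73 also lies 14 bases away and that of Krt72 60 bases, and for the other 6 genes shown the starts are the same. Krt75, the gene with the smallest scMSC difference, and Krt72 held no TATAAA on their own strand there.
Krt75, chr15:101573905-101574004, minus strand: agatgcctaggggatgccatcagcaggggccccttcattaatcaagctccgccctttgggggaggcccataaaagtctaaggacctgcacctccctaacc
Krt72, chr15:101786521-101786620, minus strand: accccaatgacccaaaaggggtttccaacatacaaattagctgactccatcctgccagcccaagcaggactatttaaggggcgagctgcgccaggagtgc

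The regulators of the hair matrix and shaft were followed with a list of 22 genes. In scMSC minus DNCB 15 were called higher and none lower, with a median log2 fold change of 1.82. In scivMSC minus DNCB 7 were called higher, and in DNCB minus control 3 were called lower. Summed over the list the level was 134, 190 and 173 FPKM in control, 185, 174 and 184 in DNCB, 408, 678 and 623 in scMSC and 422, 343 and 377 in scivMSC. Hoxc13, a homeobox factor that activates hair keratin genes, was at 5.62 ± 1.07 FPKM in DNCB and 53.6 ± 20.9 in scMSC (mean ± SD, n = 3) and differed by 3.29 ± 0.43 (adjusted p = 0.00199). Dlx3, a homeobox factor needed for shaft and sheath, differed by 3.37 ± 0.50 (adjusted p = 0.00274) in scMSC and 2.35 ± 0.48 (adjusted p = 0.017) in scivMSC. Neither was called in DNCB minus control, at -0.44 ± 0.39 (adjusted p = 0.466) and -0.19 ± 0.46 (adjusted p = 0.807). The most abundant gene of the list, Hr, a corepressor of the follicle cycle, was not called in scMSC minus DNCB, at 0.69 ± 0.22 (adjusted p = 0.0645), and Ovol1 was called at 1.07 ± 0.28 (adjusted p = 0.0308).

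Genes of adhesion and cross-linking in the shaft were followed with another list. Of 16 genes 5 were called higher in scMSC than in DNCB, 3 in scivMSC than in DNCB and 6 in DNCB than in control, with 1 lower there. Padi1, a deiminase that modifies trichohyalin and filaggrin, rose in scMSC over DNCB by 4.83 ± 0.94 (adjusted p = 0.00807). Tgm3, the transglutaminase of hardening follicle layers, was called in DNCB minus control at 1.91 ± 0.36 (adjusted p = 0.00383) and not in scMSC minus DNCB, at -0.69 ± 0.35 (adjusted p = 0.252). The paper describes Tgm3 as downregulated in the DNCB group. Here its level was 12.7 ± 4.41 FPKM (mean ± SD, n = 3) in control and 53.6 ± 17.2 in DNCB. The desmosomal genes Pkp1 and Jup were called in DNCB minus control, at 1.10 ± 0.23 (adjusted p = 0.00567) and 1.10 ± 0.29 (adjusted p = 0.0176), and the most abundant gene, desmoplakin (Dsp), in neither.

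Other cell types were followed with lists of their marker genes, and their part in the result was not tested. None of their lists held a gene at 0 in every library. All 10 mitosis genes, led by Mki67, were called higher in DNCB than in control, and by edgeR none was called between DNCB and either MSC group (2 in scMSC and 1 in scivMSC at an unadjusted p under 0.05; 0 and 1 called by DESeq2, 0 by limma). Their summed level was 15.3, 32.2 and 21.9 FPKM in control, 122, 94.3 and 104 in DNCB, 51.3, 60.7 and 99.4 in scMSC and 49.8, 84.7 and 79.2 in scivMSC. For 10 melanocyte genes, led by Pmel, the sum was 28.5, 39.5 and 19.2 FPKM in control, 84.8, 85.2 and 106 in DNCB, 145, 189 and 367 in scMSC and 133, 144 and 189 in scivMSC, with 4 called higher in DNCB than in control, 3 higher in scMSC than in DNCB and 1 higher in scivMSC than in DNCB. For 12 dermal papilla genes, 2 were called higher in DNCB than in control, 2 higher and 1 lower in scMSC than in DNCB, and 1 higher and 1 lower in scivMSC than in DNCB. In scMSC minus DNCB the higher 2 were Corin at 2.29 ± 0.41 (adjusted p = 0.00576) and Wif1 at 1.65 ± 0.42 (adjusted p = 0.0276), and the lower was Crabp1, the most abundant, at -2.93 ± 0.46 (adjusted p = 0.00326). Summed, the list was at 33.1, 35.1 and 25.5 FPKM in control, 111, 117 and 105 in DNCB, 43.2, 42.3 and 85.4 in scMSC and 38.8, 60 and 43.7 in scivMSC. Of 11 outer root sheath and bulge genes, led by Krt15, none was called by edgeR between DNCB and either MSC group (3 in scMSC and 6 in scivMSC at an unadjusted p under 0.05; 0 and 1 called by DESeq2, 0 by limma), and 2 were called lower in DNCB than in control. Their sum was 843, 675 and 607 FPKM in control, 490, 405 and 369 in DNCB, 693, 528 and 400 in scMSC and 738, 596 and 806 in scivMSC.

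The summed level of marker genes of sebaceous glands, which open into the follicle, was lower in DNCB than in control and higher in both MSC groups than in DNCB. All 10 of these genes, led by Scd1, were called lower in DNCB than in control, and 9 were called higher in scMSC and in scivMSC than in DNCB. None of the 10 was called by edgeR in either MSC group against control, where all 31 and 25 of the follicle genes were (2 of the 10 in scMSC and 0 in scivMSC at an unadjusted p under 0.05; 0 called by DESeq2 or limma). Their summed level was 596, 743 and 682 FPKM in control, 118, 86.8 and 97.7 in DNCB, 627, 402 and 368 in scMSC and 655, 380 and 907 in scivMSC.

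Neutrophil genes had the opposite order. All 8 neutrophil genes, led by S100a9, were called higher in DNCB than in control and lower in each MSC group than in DNCB, with sums of 125, 121 and 209 FPKM in control, 3224, 3502 and 2535 in DNCB, 43.7, 67.6 and 16.6 in scMSC and 36.5, 184 and 84.4 in scivMSC. The 4 stress keratins, led by Krt6a, were all called higher in DNCB than in control, and 3 were called lower in scMSC than in DNCB, with sums of 526, 484 and 553 FPKM in control, 7079, 8807 and 8262 in DNCB, 907, 1453 and 683 in scMSC and 1208, 4581 and 1152 in scivMSC. In scivMSC minus DNCB none of the 4 was called by edgeR (3 at an unadjusted p under 0.05; 2 called by DESeq2, 3 by limma with either pseudocount), and 3 were called higher in scivMSC than in control. In scivMSC replicate 2, the scivMSC library with the lowest follicle sum, the stress keratin sum was the highest of the MSC-treated libraries. In scMSC replicate 2, the library with the highest follicle sum, the stress keratin sum was the highest of the scMSC group. Of 7 fibroblast genes, led by Col3a1, 5 were called higher in DNCB than in control and 3 lower in scMSC than in DNCB, with sums of 312, 253 and 381 FPKM in control, 2231, 2326 and 1994 in DNCB, 818, 273 and 367 in scMSC and 752, 1016 and 145 in scivMSC. In scivMSC minus DNCB none of the 7 was called by edgeR (5 at an unadjusted p under 0.05; 4 called by DESeq2, 2 by limma with either pseudocount). Of 11 epidermal genes, led by Krt10, 2 were called higher and 2 lower in DNCB than in control, and 1 was called higher and 2 lower in each MSC group than in DNCB, with sums of 6283, 9593 and 13553 FPKM in control, 18617, 20545 and 14230 in DNCB, 10267, 6935 and 5509 in scMSC and 12812, 16795 and 9397 in scivMSC.

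Markers of tissue below the dermis and of blood cells were also followed. Of 9 skeletal muscle genes, led by Acta1, 7 were called lower in DNCB than in control and none by edgeR between DNCB and either MSC group (0 in scMSC and 1 in scivMSC at an unadjusted p under 0.05; 0 and 1 called by DESeq2, 0 by limma), with sums of 23991, 24257 and 17027 FPKM in control, 4644, 5460 and 6386 in DNCB, 8091, 4748 and 10835 in scMSC and 6639, 5072 and 12658 in scivMSC. Of 7 adipocyte genes, led by Car3, 4 were called lower in DNCB than in control, none by edgeR, DESeq2 or limma in scMSC minus DNCB (3 at an unadjusted p under 0.05 by edgeR), and 2 higher and 1 lower in scivMSC minus DNCB, with sums of 2549, 2176 and 1458 FPKM in control, 455, 525 and 720 in DNCB, 1168, 710 and 1018 in scMSC and 944, 955 and 1030 in scivMSC. None of 8 macrophage genes or 5 red blood cell genes was called in these 3 comparisons by edgeR. At an unadjusted p under 0.05 it was 0, 2 and 2 macrophage genes and 2, 0 and 0 red blood cell genes, in the order DNCB minus control, scMSC minus DNCB and scivMSC minus DNCB. DESeq2 called 0, 2 and 2 of the former and 1, 0 and 0 of the latter, and in DNCB minus control limma called 1 macrophage gene, on log2(FPKM + 1) alone, and 1 red blood cell gene. Of 7 T cell genes 1, Cd4, was called by edgeR higher in DNCB than in control and lower in scMSC than in DNCB. The median log2 fold changes of the 7 in these comparisons were -0.33 and -0.92. DESeq2 called 3 and 1 of the 7 there, limma on log2(FPKM + 0.1) 1 and 1, and limma on log2(FPKM + 1) 0 and 0. None of the T cell genes was called in scivMSC minus DNCB by edgeR, DESeq2 or limma (1 at an unadjusted p under 0.05 by edgeR). The macrophage list, led by Lyz2, summed to 221, 243 and 857 FPKM in control, 763, 813 and 838 in DNCB, 425, 180 and 197 in scMSC and 357, 445 and 50.7 in scivMSC. The red blood cell list, led by Hbb-bs, summed to 178, 148 and 159 FPKM in control, 212, 214 and 594 in DNCB, 203, 245 and 234 in scMSC and 241, 493 and 156 in scivMSC, and the T cell list, led by Cd3g, to 3.75, 2.36 and 4.93 FPKM in control, 3.27, 3.66 and 3.61 in DNCB, 2.94, 1.47 and 0.843 in scMSC and 3.19, 2.22 and 2.75 in scivMSC.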

How the data were processed

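Whole dorsal skin of 12 mice was sequenced, 3 per group, and groups were taken from the sample labels. The authors deposited 1 table with FPKM values, and the labels name HISAT2 2.0, StringTie 1.3.0 and Bowtie 0.12.2 without saying what each was used for. The authors also deposited estimated counts in the same table, as whole numbers not scaled between libraries, and how these were counted is not stated. The labels name mm8, but the coordinates in the table are those of GRCm38: of its 36400 genes 36287 have identifiers in GENCODE M21, and 87.9% of the 36400 lie at identical positions. No reads were realigned.

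FPKM was used for levels. The estimated counts were tested with edgeR 4.0.16 (TMM, quasi-likelihood F-test, 1 model of the 4 groups) in R 4.3.3, on genes whose mean FPKM reached 0.1, and all 6 pairs of groups were compared. The test was tested on simulated data. Totals ran from 63877153 to 75134001 and TMM factors from 0.887 to 1.06. The biological coefficient of variation shared by all genes was 0.42. With 3 against 3 libraries an exact rank test cannot give a p under 0.1. Tables and figures were made with Python 3.11.15, pandas 2.3.3, numpy 2.4.6 and matplotlib 3.10.9.

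The genes and the lists (matrix and shaft regulators, shaft adhesion and cross-linking, and 14 cell types) were chosen with earlier results of these data known. Values in every library are given for the 2 genes of highest mean FPKM in each role class and up to 6 further called genes. From each list, the 2 most abundant and up to 4 called genes were eligible, and other named genes were chosen after their values were seen. Alternatives were DESeq2 1.42.0, limma 3.58.1 with 2 pseudocounts, 2 filters, library size alone, counts divided by 4, only the 6 libraries compared, a replicate block, and leaving out each library.

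Whole skin RNA gives no cell numbers and no protein levels. The paper itself reports higher hair coverage of the back in its MSC groups than in its DNCB group. It also reports more follicles with papilla cells stained for a proliferation marker, and enrichment of hair follicle development in skin RNA after MSC treatment. Those results were not re-examined here. Each library is 1 mouse at 1 time, day 30, so the order in which genes changed was not observed. Batch, cage and hair cycle stage at collection are not given in the labels. Several hair keratins share long identical stretches, and the effect of this on their values was not tested. Protein sequences were not available, and 1 listed gene was not analysed.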

Additional observations from a re-analysis of the deposited data

How the results depend on the processing

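Every one of the 31 log2 fold changes was positive in scMSC minus DNCB, scivMSC minus DNCB, scMSC minus control and scivMSC minus control, and negative in scivMSC minus scMSC, under all alternatives tried. In DNCB minus control 25 to 29 of 31 were positive.

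The number of genes called in DNCB minus control, 7, was 13 by DESeq2, 19 by limma on log2(FPKM + 0.1), 12 by limma on log2(FPKM + 1), 13 with a mean FPKM of at least 1, 13 with library size alone, 11 with counts divided by 4, 1 with only the 6 libraries compared (fewer samples) and 3 with a replicate block. Leaving out 1 library gave 1 (control replicate 1) to 22 (control replicate 2). None of the 7 calls held under every alternative. Krt39 held without each library in turn, but by limma it was not called.

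In scivMSC minus DNCB the count of 16 was 22 by DESeq2, 23 and 24 by limma with the smaller and the larger pseudocount, 26 with only the 6 libraries compared and 4 with the replicate block. Leaving out 1 library gave 0 (DNCB replicate 1 or scivMSC replicate 1) to 27 (control replicate 2). In scMSC minus DNCB the 27 became 30 by DESeq2, 29 and 31 by limma, 31 with only the 6 libraries compared, 21 with the replicate block, and 17 (DNCB replicate 1) to 31 (control replicate 2 or 3) leaving out 1 library, and 17 genes kept their call under every alternative. In scivMSC minus control the 25 became 30 by DESeq2, 31 by limma with either pseudocount, 28 with library size alone, 18 with only the 6 libraries compared, 24 with the replicate block, and 16 (control replicate 1) to 27 (control replicate 2) leaving out 1 library, with 14 kept throughout. In scMSC minus control the 31 became 30 by DESeq2, 26 with only the 6 libraries compared and 27 to 31 leaving out 1 library, and 25 were kept. DESeq2 gave no p for Tchh, so its counts are out of 30 genes and Tchh is not counted as kept; in scMSC minus control Tchh was called under every other alternative. The replicate block was used only as an alternative, since the study compares groups without pairing. Of the 12 libraries, 2 resembled most a library of the same number in another group.

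The median log2 fold change ran over the leave-one-out fits from 1.73 (without DNCB replicate 3) to 4.10 (without control replicate 2) in DNCB minus control, from 6.57 (without scMSC replicate 2) to 9.87 (without control replicate 2) in scMSC minus control, and from 5.23 (without control replicate 3) to 8.14 (without control replicate 2) in scivMSC minus control. It ran from 4.48 (without scMSC replicate 2) to 6.17 (without DNCB replicate 3) in scMSC minus DNCB, from 3.22 (without DNCB replicate 2) to 4.32 (without DNCB replicate 3) in scivMSC minus DNCB, and from -2.22 (without scivMSC replicate 1) to -1.10 (without scMSC replicate 2) in scivMSC minus scMSC.

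Directions reversed only in DNCB minus control, in genes not called by edgeR with all 12 libraries. Krt36 was 0.20 and 0.04 by limma with the 2 pseudocounts and -0.66 (without control replicate 1) to 0.07 (without control replicate 2) leaving out libraries. Crisp1 was 0.06 by limma on log2(FPKM + 0.1) and -1.28 (without control replicate 3) to 5.71 (without control replicate 1, which leaves controls at 0). Krt74 was -0.92 (without DNCB replicate 3) to 1.18 (without control replicate 1), and Krt35 -0.63 (without DNCB replicate 3) to 4.10 (without control replicate 2). Without control replicate 2 Krt35 was called by edgeR (adjusted p = 0.0101). The causes were not tested.

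Against control, library size alone moved the median log2 fold change of all genes by 0.182 (DNCB), 0.159 (scMSC) and 0.175 (scivMSC), and limma on log2(FPKM + 0.1) by 0.176, 0.146 and 0.151. Depth limits Krt39 and Krt40 in control and Crisp1 in DNCB, which held no more than 12 estimated counts in each library.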
